A study of Homo sapiens with 48 samples.

Results

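The RNA of 10 alpha- and beta-tubulin genes was measured in 22Rv1, a human line of castration-resistant prostate cancer, and in 5 lines derived from it. The members are the alpha-tubulin genes TUBA1A, TUBA1B, TUBA1C and TUBA4A and the beta-tubulin genes TUBB, TUBB2A, TUBB2B, TUBB3, TUBB4B and TUBB6, which are 10 of the 61815 genes in the table of counts. All 10 of them passed the filter on low counts, as did 20009 genes in all. They were chosen by name, with TUBB as the leading gene, because TUBB separated Rv1-WT from Rv1-Luc in its response to androgen depletion under vehicle. The values of that contrast are therefore given below as a description, without a test.

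The study asked what the CDK8/19 Mediator kinases do in these cells, using SNX631, an inhibitor of both kinases. Parental 22Rv1 is called Rv1-WT, and its derivative made with a lentivirus carrying firefly luciferase is Rv1-Luc. These were each cultured with fetal bovine serum (FBS), which contains androgens, or with serum stripped of them by charcoal (CSS). In the dKO derivatives CDK8 and CDK19 had been knocked out with CRISPR/Cas9 and 1 kinase was then re-expressed: active CDK8 in dKO-8, active CDK19 in dKO-19, and a kinase-dead mutant of each in dKO-8M and dKO-19M, all in FBS. Each line and medium received 500 nM SNX631 or 0.1% DMSO (vehicle) for 72 hours, which gave 16 groups of 3 libraries. Wells with CSS were seeded more densely than wells with FBS and their cells had first been passed once in CSS, so depletion cannot be told apart from these differences. Each derivative is 1 line. The p-values rest on the spread between libraries of the same group, estimated over all 16 groups together and not for each group. The labels do not describe the 3 libraries of a group as separate experiments.

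The 12 libraries of Rv1-WT held 13231860 to 18202460 counts each, and those of the other lines 19270958 to 31496134. The luminal prostate markers KRT8, KRT18 and HOXB13 were at or above 173 counts-per-million (CPM) in every library, while FOLH1 went as low as 4.9 CPM and KLK3 as low as 0.409 CPM. Of 6 markers of other cell types, the leukocyte gene PTPRC, the endothelial gene PECAM1 and the stromal gene COL1A2 stayed at or below 0.815 CPM, the neuroendocrine gene CHGA reached 4.34 CPM, the stromal gene COL1A1 was at 2.54 to 10.8 CPM and the neuroendocrine gene SYP at 32.2 to 90.7 CPM. The re-expressed kinase was visible as RNA, with CDK8 at 68.7 ± 2.43 CPM in dKO-8 and 123 ± 3.95 in dKO-8M under vehicle (mean ± SD, n = 3), against 26.8 ± 0.472 in Rv1-WT. CDK8 was at 27.7 ± 1.42 in dKO-19, so RNA levels do not show the knockouts. Replicate 1 of dKO-19M under vehicle stood apart from replicates 2 and 3: the chi-square per degree of freedom was 16.5 and 16 in its comparisons with them and 1.43 between the other two.

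Tubulin is a heterodimer of 1 alpha and 1 beta subunit, and the dimers join head to tail into the protofilaments of microtubules, which form the mitotic spindle and the tracks of intracellular transport. Each subunit is encoded by several genes, or isotypes, whose products differ mainly at the carboxy-terminal tail that projects from the microtubule and carries polyglutamylation and other modifications. Cells keep the amount of tubulin within limits by autoregulation: when free dimers are in excess, TTC5 binds the amino-terminal residues of a tubulin chain as it leaves the ribosome, SCAPER brings in the CCR4-NOT deadenylase, and the messenger RNA being translated is degraded. TUBA1B and TUBB are widely expressed isotypes, and TUBB3 and TUBB2B are best known from neurons. TUBB3 has also been studied in taxane-treated tumours, since taxanes bind beta-tubulin.

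The start of the coding sequence is shown first, because autoregulation reads its product and because it shows how alike the genes are. The 24 bases below come from the GENCODE 29 transcripts of GRCh38, with the first 12 bases in capitals. TUBA1A, TUBA1B and TUBA1C had the same 24 bases, as did TUBB3 and TUBB6.
TUBA1A, TUBA1B, TUBA1C: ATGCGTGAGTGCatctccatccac
TUBA4A: ATGCGTGAATGCatctcagtccac
TUBB: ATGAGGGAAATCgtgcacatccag
TUBB2A: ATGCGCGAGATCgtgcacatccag
TUBB2B: ATGCGTGAGATCgtgcacatccag
TUBB3, TUBB6: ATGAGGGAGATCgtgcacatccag
TUBB4B: ATGAGGGAAATCgtgcacttgcag

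The end of the coding sequence, which encodes the tail, set the isotypes apart, except in the pairs with nearly the same sequence. The last 60 bases are given for the beta-tubulin genes that share sequence and for TUBB and TUBB4B, the most abundant beta-tubulin transcripts, with the stop codon in capitals. TUBA1A and TUBA1B differed at 38 of 1356 coding bases. TUBB2A and TUBB2B differed at 2 of the last 60 bases and at 25 of 1338 in all.
TUBB: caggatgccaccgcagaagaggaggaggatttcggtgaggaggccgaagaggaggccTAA
TUBB2A: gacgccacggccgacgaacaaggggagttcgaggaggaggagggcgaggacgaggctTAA
TUBB2B: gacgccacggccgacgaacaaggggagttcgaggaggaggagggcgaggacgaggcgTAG
TUBB3: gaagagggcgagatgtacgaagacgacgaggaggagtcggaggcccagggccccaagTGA
TUBB4B: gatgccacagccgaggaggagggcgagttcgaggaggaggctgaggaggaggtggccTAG

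In GRCh38 with the GENCODE 29 annotation, TUBB (ENSG00000196230.14) lies at chr6:30720201-30725426 on the plus strand. TUBB2A and TUBB2B are neighbours on the minus strand of the same chromosome, at chr6:3153669-3157526 and chr6:3224261-3231730. TUBA1B (chr12:49127782-49131397, minus), TUBA1A (chr12:49184796-49189324, minus) and TUBA1C (chr12:49188736-49274603, plus) form a cluster, in which the gene models of TUBA1A and TUBA1C overlap on opposite strands. The remaining members are single: TUBA4A at chr2:219249711-219278170 (minus), TUBB3 at chr16:89921392-89938761 (plus), TUBB4B at chr9:137241213-137243707 (plus) and TUBB6 at chr18:12307669-12344320 (plus). The principal transcript of each had 4 exons and a coding sequence of 1335 to 1356 bases. Over the coding sequence, identity was 84.4% to 97.2% among the alpha-tubulin genes, 80.9% to 98.1% among the beta-tubulin genes and 51.9% to 54.0% between the families.

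The deposited counts are not all whole numbers, and the tubulin genes were affected to unequal degrees. How reads that fit more than 1 place were counted is not given in the sources used here. Counts of TUBB3 were fractional in 64.6% of the 48 libraries, those of TUBB2B in 56.2%, TUBB2A in 54.2%, TUBA1A in 50%, TUBA1C in 45.8% and TUBA1B in 43.8%, against a median of 4.17% over the tested genes. TUBB (12.5%) and TUBB4B (8.33%) were fractional in few libraries, and TUBA4A and TUBB6 in 0%. The genes with fractional counts were those with shared sequence. Of all 75-base windows of the transcript, a length chosen here, 89.2% of those of TUBB3, 60.4% of TUBB2A, 49.5% of TUBB2B, 48.4% of TUBA1B, 27.1% of TUBA1A and 17% of TUBA1C also occurred in another gene. The values were 8.44% for TUBB, 5.37% for TUBB4B, 3.02% for TUBA4A and 0.0% for TUBB6. For TUBB2A and TUBB2B the sharing was chiefly with each other, and for TUBA1A and TUBA1B likewise. All shared windows of TUBB3 lay in a read-through gene, ENSG00000198211, whose count was 1.02 to 1.17 times that of TUBB3 in the 48 libraries, so the 2 entries cannot be told apart here. Values of TUBB3, TUBA1A, TUBA1B, TUBA1C, TUBB2A and TUBB2B are therefore uncertain as to their source. Sums of the TUBA1 genes, of the TUBB2 pair or of each family are given beside some of them.

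**Figure D1:**
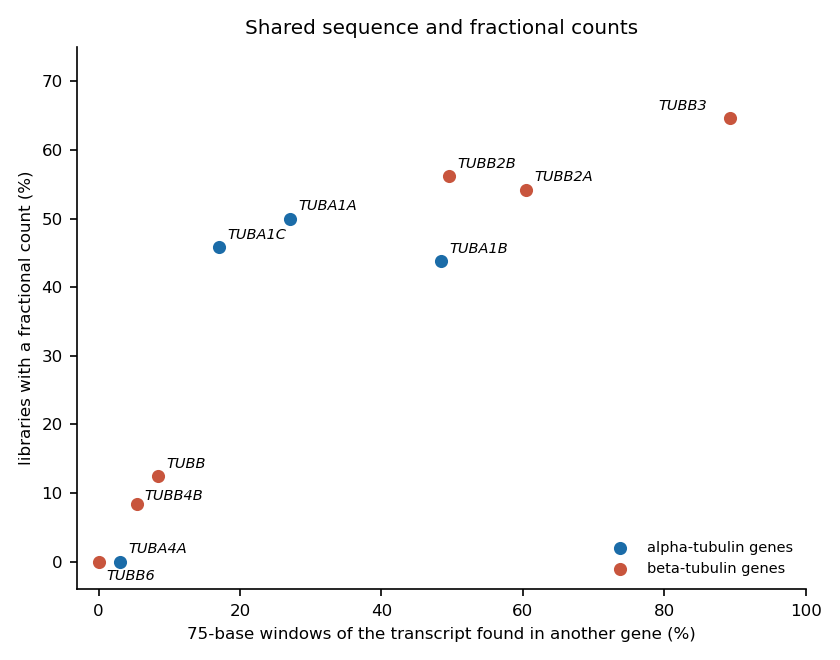
Shared sequence and fractional counts of the 10 tubulin genes. Each point is 1 gene, with the percent of its 75-base transcript windows found in another gene on the horizontal axis and the percent of the 48 libraries in which its count was not whole on the vertical axis. TUBB3 is highest on both (89.2% and 64.6%), while TUBB, TUBB4B, TUBA4A and TUBB6 lie below 13% on both.

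Levels are given as CPM after scaling by trimmed means of M values (TMM), and comparisons between genes per kilobase of transcript. Per length, 1 alpha- and 2 beta-tubulin genes made up most of the tubulin RNA. TUBA1B gave 79.4% to 89.9% of the alpha-tubulin RNA over the 16 groups, TUBA1C 7.5% to 13%, TUBA1A 2.37% to 7.04% and TUBA4A 0.0619% to 1.56%. TUBB gave 42.2% to 54.0% of the beta-tubulin RNA and TUBB4B 40.6% to 54.8%, with TUBB6, TUBB3, TUBB2B and TUBB2A at or below 2.32% each. The larger of the beta-tubulin shares was that of TUBB4B in dKO-8M (54.3% against 42.6% for TUBB under vehicle) and that of TUBB in Rv1-WT in CSS with SNX631 (54.0% against 40.6%). In CPM the order in dKO-8M under vehicle was the reverse, with TUBB at 1344 and TUBB4B at 1051. The order of the shares there thus rests on the transcript lengths used, 2670 bases for TUBB and 1637 for TUBB4B. The per-length ratio of alpha- to beta-tubulin RNA ran from 1.45 ± 0.00632 in Rv1-Luc in CSS under vehicle to 1.95 ± 0.0814 in Rv1-WT in CSS with SNX631, where Rv1-WT in CSS under vehicle had 1.57 ± 0.043.

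**Figure D2:**
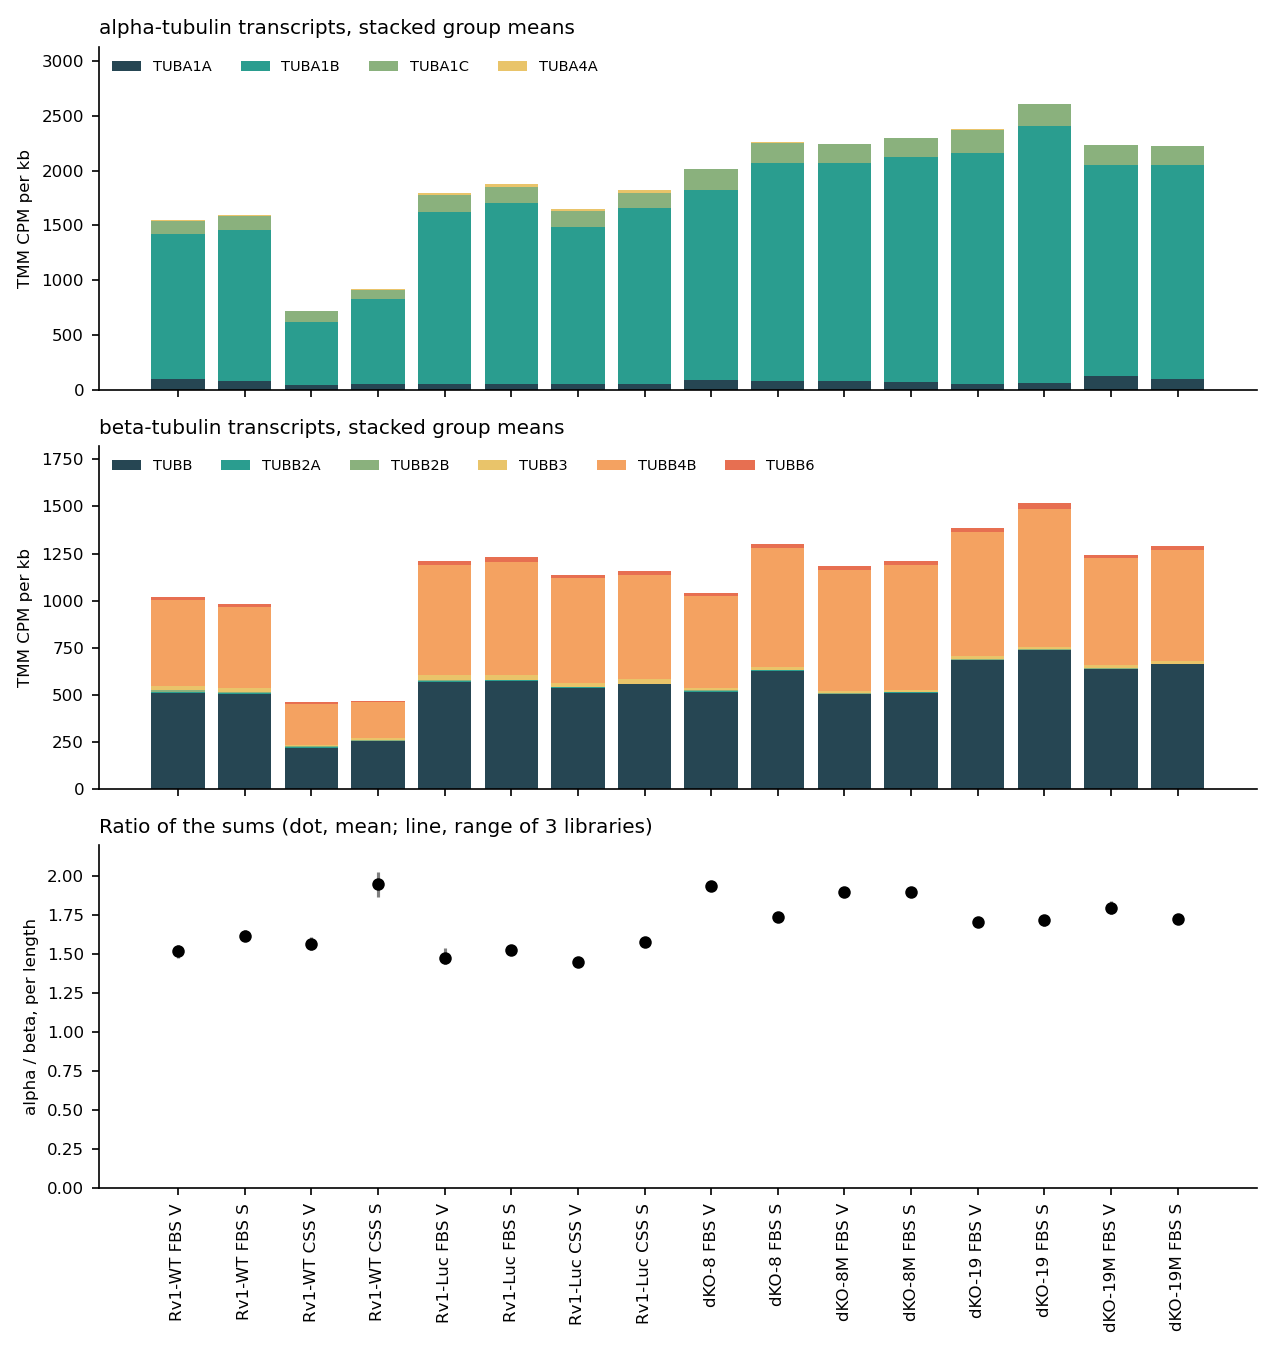
Composition of the tubulin RNA. The upper panels stack the group means of the alpha- and beta-tubulin genes in TMM-scaled CPM per kb for the 16 groups (V, vehicle; S, SNX631), and the lower panel gives the ratio of the alpha to the beta sum, with the mean as a dot and the range of 3 libraries as a line. Both families are lowest in the 2 groups of Rv1-WT in CSS, and the ratio lies between 1.45 and 1.95 in all groups.

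Within the beta family TUBB was at 1344 to 1968 CPM in 14 of the 16 groups. In FBS under vehicle its level was 1382, 1381 and 1336 CPM in Rv1-WT and 1565, 1491 and 1514 in Rv1-Luc. The highest group mean was that of dKO-19 with SNX631 (1988, 1954 and 1963 CPM) and the lowest of these 14 that of dKO-8M under vehicle (1337, 1343 and 1353 CPM). Below a gap followed Rv1-WT in CSS, with 657, 708 and 667 CPM under SNX631 and 559, 584 and 618 under vehicle. Neither of these groups overlapped with the one above it in the order, and the ratio of the highest to the lowest group mean was 3.35. That ratio was 4.08 for TUBA1B, 3.84 for TUBB4B, 4.76 for TUBB3 and 2.5 to 2.88 for TUBA1A, TUBA1C, TUBB2A and TUBB6. It was widest for the scarce transcripts TUBB2B (10.5) and TUBA4A (20.7). TUBA4A was at 20.6 to 66.4 CPM in the FBS libraries of Rv1-WT and Rv1-Luc and at 2.69 to 7.76 CPM in the dKO libraries, a description that was not tested. The share of all genes that separate these lines in this way is not given here.

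**Figure D3:**
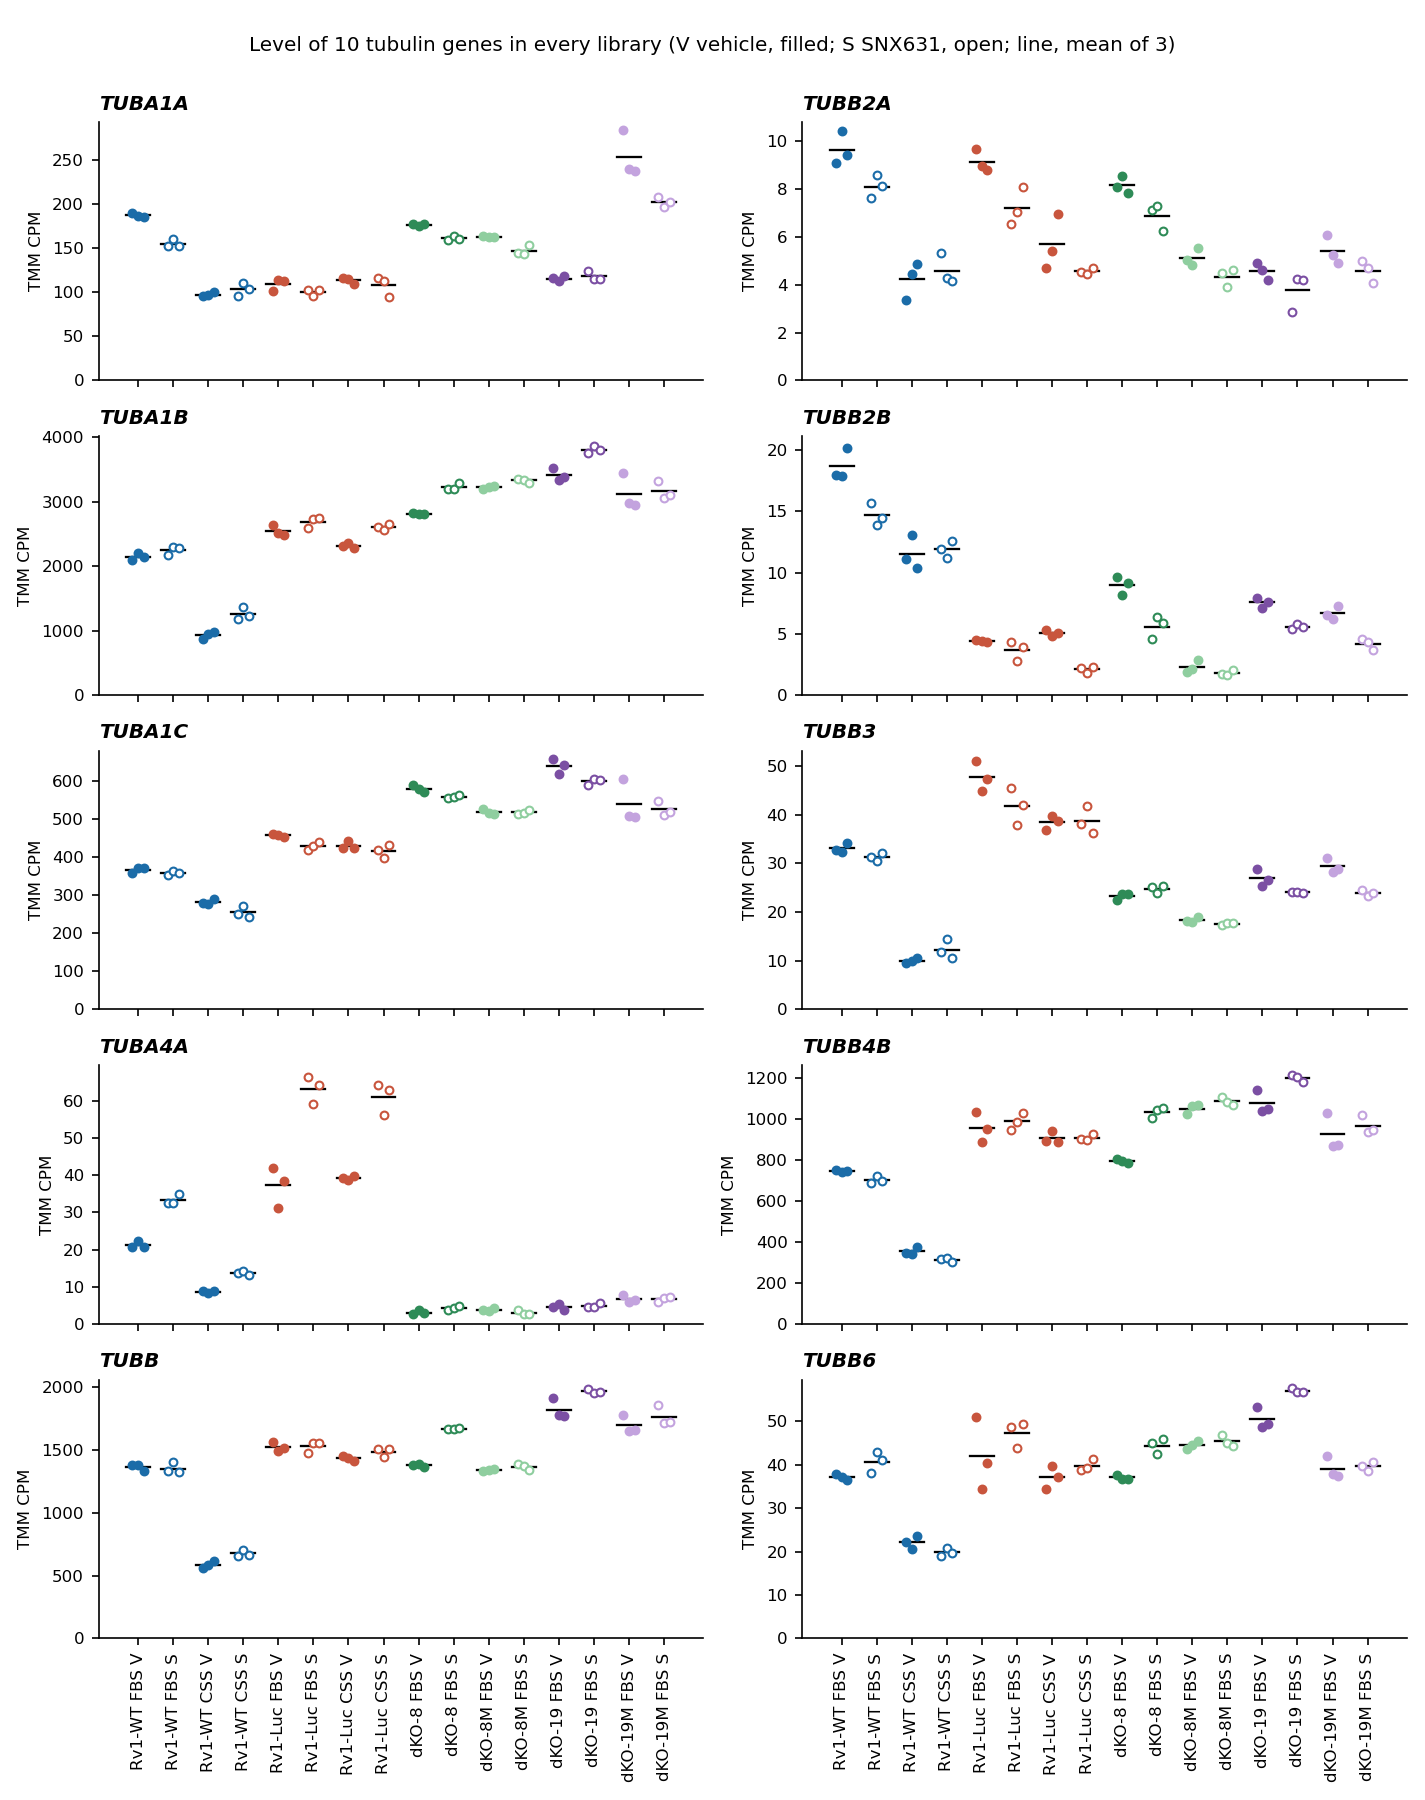
Level of each tubulin gene in every library, in TMM-scaled CPM from 0. Each panel is 1 gene, filled points are vehicle libraries, open points SNX631 libraries, colours mark the lines, and a black line is the mean of the 3 libraries of a group. TUBB, TUBA1B, TUBB4B, TUBB3 and TUBB6 are lower in CSS by more in Rv1-WT than in Rv1-Luc, and TUBA4A is near the floor in the dKO lines.

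Androgen depletion was described first in the vehicle libraries, on which the choice of TUBB rested. In Rv1-WT all 10 members were lower in CSS than in FBS, by log2 fold changes of -0.38 (TUBA1C) to -1.72 (TUBB3), with a median of -1.13 against 0.01 over all tested genes. TUBB went from 1366 ± 26.6 to 587 ± 29.6 CPM (log2 fold change -1.22, SE 0.0379). The limits of the study are an FDR (false discovery rate) under 0.01 together with a change of more than 1.5-fold. As a description and not a test, 9 of the 10 lay past them, where 10.9% of all tested genes did and 4.78% did so downwards. In Rv1-Luc the changes lay between -0.70 (TUBB2A) and 0.19 (TUBB2B) with a median of -0.09, and TUBB2A passed the limits, as 1.49% of all tested genes did, 0.81% downwards. TUBB was at 1524 ± 38 CPM in FBS and 1437 ± 17.7 CPM in CSS. The difference between the sublines, Rv1-Luc minus Rv1-WT, was 1.13 (SE 0.0528) for TUBB and 0.29 to 1.41 over the members, of which 7 passed the limits (8.65% of all tested genes, 4.61% in this direction). None of these counts, in either subline or for their difference, is a test of the members, since the same vehicle libraries were used in choosing TUBB. Nothing is read from the counts or from the shares of all genes beside them.

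The SNX631 libraries do not enter that contrast, and there the depletion was tested. The members were chosen with earlier results of these data known, so these tests are not fully independent of the choice. In Rv1-WT treated with SNX631, 8 of the 10 tubulin genes fell in CSS (edgeR, FDR under 0.01 and fold change above 1.5), where 7.83% of all tested genes changed and 2.97% fell. The FBS and CSS libraries of all 10 members did not overlap, as was so for 48.5% of all tested genes, and the median log2 fold change of the members was -0.92 against 0.01 over all genes. In Rv1-Luc with SNX631, 2 of the 10 fell, where 1.51% of all genes changed and 0.92% fell. Among the beta-tubulin genes, TUBB was at 1330, 1402 and 1324 CPM in FBS and 657, 708 and 667 CPM in CSS in Rv1-WT, a log2 fold change of -1.0 (SE 0.0377, edgeR FDR 8.17e-30). In Rv1-Luc it was at 1476, 1559 and 1560 CPM in FBS and 1508, 1445 and 1512 CPM in CSS, so those groups overlapped, and its change was -0.04 with a 95% confidence interval of -0.12 to 0.03. TUBB was the 6th and TUBB4B the 9th of all tested genes by p-value in the Rv1-WT comparison.

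TUBB4B, the other abundant beta-tubulin gene, fell in Rv1-WT from 685, 723 and 699 CPM to 316, 320 and 302 CPM with a log2 fold change of -1.17 (SE 0.0479, edgeR FDR 3.75e-28). Its Rv1-Luc levels were 948, 985 and 1029 CPM in FBS and 904, 898 and 925 CPM in CSS, all above those of Rv1-WT. TUBA1B, the main alpha-tubulin gene, fell in Rv1-WT from 2170, 2297 and 2275 CPM to 1181, 1358 and 1229 CPM (log2 fold change -0.84, SE 0.0439, edgeR FDR 1.5e-23). In Rv1-Luc it was at 2595, 2731 and 2750 CPM in FBS and at 2606, 2568 and 2648 CPM in CSS, groups that overlapped. Thus the 3 genes that give most of the tubulin RNA moved in Rv1-WT, and none of them passed the limits in Rv1-Luc.

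The scarcer isotypes moved alike in Rv1-WT. TUBB3 fell from 31.3, 30.5 and 32.1 CPM to 11.7, 14.4 and 10.5 CPM (-1.36, SE 0.0784, edgeR FDR 1.01e-21), and the read-through gene that shares its sequence fell by 1.31 on the log2 scale (edgeR FDR 4.57e-22). TUBB6 fell from 38.2, 42.9 and 41.1 CPM to 18.9, 20.9 and 19.6 CPM (-1.04, SE 0.0824, edgeR FDR 5.44e-16). TUBA4A fell from 32.6, 32.5 and 34.9 CPM to 13.8, 14.2 and 13.2 CPM (-1.28, SE 0.0929, edgeR FDR 1.33e-17). These 3 genes had no library of CSS within the range of FBS, and TUBB6 and TUBA4A carried whole counts in all libraries.

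TUBA1A lay close to the limit of fold change, at 152, 160 and 152 CPM in FBS and 95.1, 110 and 104 CPM in CSS (-0.59, SE 0.0558, edgeR FDR 4.11e-13). Its change came to -0.56 without replicate 2 of Rv1-WT in FBS with SNX631 and to -0.53 without replicate 1 of Rv1-WT in CSS with SNX631, below the limit of 1.5-fold in both. TUBB2A fell by 0.82 on the log2 scale (SE 0.136, edgeR FDR 1.23e-06), but its sum with TUBB2B had -0.47 (edgeR FDR 4.85e-06) and did not pass the limit of fold change. The members that did not pass the limits were TUBA1C, at 354, 365 and 359 CPM in FBS and 251, 271 and 244 CPM in CSS (-0.49, a fold change of 1.41, edgeR FDR 1.61e-14), and TUBB2B, with -0.30 (edgeR FDR 0.0147).

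In Rv1-Luc with SNX631 the members that fell in CSS were the neighbours TUBB2A and TUBB2B, 2 of the scarcest. TUBB2A was at 6.51, 7.01 and 8.08 CPM in FBS and 4.51, 4.45 and 4.71 CPM in CSS (-0.66, SE 0.126, edgeR FDR 0.000114). TUBB2B was at 4.31, 2.81 and 3.9 CPM in FBS and 2.21, 1.76 and 2.28 CPM in CSS (-0.80, SE 0.162, edgeR FDR 0.000248). FBS and CSS did not overlap for either gene, and their summed counts also fell (-0.71, SE 0.098, edgeR FDR 1.78e-07). The call of TUBB2A was lost without replicate 3 of Rv1-Luc in FBS with SNX631 (-0.57, edgeR FDR 0.00404), and that of TUBB2B after thinning to 1 depth (-0.68, edgeR FDR 0.0185) and in a fit to these libraries only (-0.81, edgeR FDR 0.012). The FBS and CSS libraries did not overlap for 4 of the 10 members here, against 26.2% of all tested genes. The other 8 members had changes between -0.25 (TUBB6, edgeR FDR 0.0116) and 0.11 (TUBA1A).

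The difference between the sublines in the SNX631 libraries was tested with an interaction term. The change in CSS was higher in Rv1-Luc than in Rv1-WT for 7 of the 10 members, where 5.84% of all tested genes differed and 2.66% were higher. TUBB differed by 0.96 (SE 0.0527, edgeR FDR 1.16e-21), TUBB4B by 1.05 (SE 0.0664, edgeR FDR 3.84e-19), TUBA1B by 0.79 (SE 0.0615, edgeR FDR 7.88e-16) and TUBB3 by 1.25 (SE 0.0998, edgeR FDR 2.21e-15). TUBA4A differed by 1.23, TUBB6 by 0.79 and TUBA1A by 0.70, the last with an edgeR FDR of 2.59e-10. TUBA1C (0.45), TUBB2A (0.16) and TUBB2B (-0.50, edgeR FDR 0.0451) did not pass the limits. Summed over each family, the difference was 0.74 (SE 0.059) for the alpha- and 0.97 (SE 0.0554) for the beta-tubulin genes, and the 10 members together took 0.508% ± 0.0124 of all counts in FBS and 0.28% ± 0.0147 in CSS in Rv1-WT, against 0.616% ± 0.0145 and 0.598% ± 0.00786 in Rv1-Luc. Rv1-WT libraries were shallower than those of Rv1-Luc, and all 7 of these calls were kept when all libraries were thinned to 1 depth. In these bulk samples a change in the amount of RNA per cell cannot be told apart from a change in the share of cells that carry it.

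**Figure D4:**
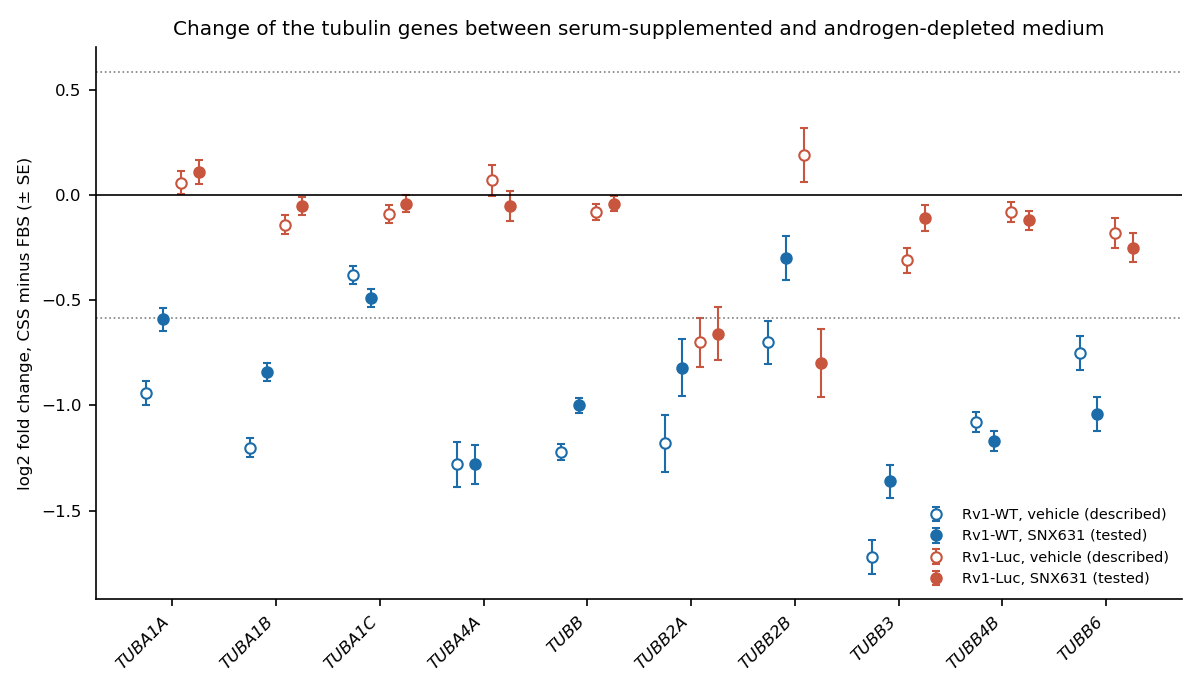
Change of each tubulin gene between FBS and CSS, as the log2 fold change ± SE (CSS minus FBS) from the fit over all 48 libraries. Open symbols are vehicle libraries, which are described only, filled symbols SNX631 libraries, blue is Rv1-WT and red is Rv1-Luc. Dotted lines mark a 1.5-fold change. In Rv1-WT all values lie below 0, while in Rv1-Luc 8 of the 10 filled symbols lie between -0.25 and 0.11.

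The other genes of the pathway did not move to the same extent in Rv1-WT with SNX631. The list of 7 tubulin folding genes held TBCA to TBCE, the cofactor-like TBCEL and ARL2, and none passed the limits (median log2 fold change -0.24). Nor did any of 6 prefoldin subunits (-0.20), 8 subunits of the chaperonin CCT (-0.20) or 9 genes of the gamma-tubulin ring complex (-0.18). The same held for the autoregulation factors TTC5 and SCAPER (-0.22) and 12 cell division genes (-0.14). All 7 folding genes, 7 of the 8 chaperonin genes and 10 of the 12 cell division genes had a negative sign. Of 12 further tubulin genes, 10 were tested and 3 fell: TUBB4A, another beta-tubulin, by 1.53, TUBA3D, another alpha-tubulin, by 1.01 and TUBG1, the gamma-tubulin of the centrosome, by 0.59 on the log2 scale. TUBB4A and TUBA3D were scarce, at 0.236 to 9.53 CPM and 0.186 to 2.78 CPM over the 48 libraries. TUBE1, epsilon-tubulin, which acts at centrioles, rose by 0.93 (edgeR FDR 7.63e-19). Among 21 tested microtubule-associated genes, MAP1A (-0.80) and MAPT (-0.63), whose proteins stabilise microtubules, fell, while MAP1B rose by 1.01 (edgeR FDR 9.43e-12). Of 16 tubulin-modifying enzymes, VASH2, a tubulin carboxypeptidase, fell (-0.63) and TTLL1, the catalytic subunit of a polyglutamylase, rose (0.91). In the vehicle libraries of Rv1-WT, described without a test, TBCD changed by -0.62, ARL2 by -0.59 and CCT3 by -0.68. There the folding list had a median of -0.3 and the chaperonin list one of -0.25.

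In Rv1-Luc, TUBA3D (-1.27), the folding cofactor-like gene TBCEL (-0.72) and the mitotic kinase gene AURKB (-0.66) fell in CSS with SNX631, and the 12 cell division genes had a median of -0.12. The interaction term was past the limits for TUBB4A (1.14), MAP1A (0.74), MAPT (0.65) and TTLL11 (0.62), which were higher in Rv1-Luc, and for MAP1B (-1.24), TUBE1 (-0.99) and TTLL1 (-0.62). None of the folding, chaperonin, prefoldin, ring complex or cell division genes differed between the sublines by that test in the SNX631 libraries. In the vehicle libraries, described without a test, the same difference was 0.6 for TBCD, 0.64 for ARL2, 0.59 for CCT3 and -0.62 for AURKA. Their lists had medians of 0.32 (folding), 0.11 (chaperonin) and -0.26 (cell division) there. In the SNX631 libraries the luminal markers had a median of 0.02 in Rv1-WT and -0.16 in Rv1-Luc, with 0 of 7 changed in either. The interaction term was past the limits for 1 of these 7, KLK3, the gene of prostate-specific antigen (-0.80, edgeR FDR 0.00204), which was at 0.409 to 11.6 CPM over the 48 libraries. Of the markers of other cell types, PTPRC, with at most 15 counts in a library, was past the limits in Rv1-WT (higher in CSS with SNX631, edgeR FDR 0.00412), and none was in Rv1-Luc or by the interaction term.

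The upstream sequence is shown for the beta-tubulin genes TUBB and TUBB4B, which moved together in Rv1-WT. It comes from the RefSeq promoter table (GRCh38.p14) and was cut at the first base of a GENCODE exon, and CCAAT, the box bound by NF-Y, is in capitals. The windows are chr6:30720102-30720200 for TUBB and chr9:137241037-137241212 for TUBB4B, both on the plus strand.
TUBB: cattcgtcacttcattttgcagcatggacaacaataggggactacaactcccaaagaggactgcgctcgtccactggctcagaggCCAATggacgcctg
TUBB4B: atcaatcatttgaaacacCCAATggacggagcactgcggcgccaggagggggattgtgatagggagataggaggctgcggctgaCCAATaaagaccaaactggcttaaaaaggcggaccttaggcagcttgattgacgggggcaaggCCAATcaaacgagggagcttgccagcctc

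TUBB4B held 3 CCAAT boxes and TUBB 1, searched on both strands. In the whole 250-base window before the start, CCAAT occurred in 5 of the 10 members and in 33.0% of 27305 promoters, and the window of TUBA1B held 0. The GC box GGGCGG was found in 5 members against 42.3% of promoters, the heat shock motif GAANNTTC in 1 against 5.85%, TATAAA in 1 against 11.1% and the E-box CACGTG in 0 against 6.49%. These are matches of letters, not sites of binding.

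SNX631 itself was compared with vehicle in 8 settings. TUBA4A was the tubulin gene that rose, and it did so in all 4 settings of Rv1-WT and Rv1-Luc. In Rv1-WT it went from 20.8, 22.3 and 20.6 CPM to 32.6, 32.5 and 34.9 CPM in FBS (log2 fold change 0.65, SE 0.089, edgeR FDR 7.28e-08), where 2.39% of all tested genes changed. In CSS it went from 8.95, 8.3 and 8.86 CPM to 13.8, 14.2 and 13.2 CPM (0.66, SE 0.112, edgeR FDR 5.64e-06; 4.23% of all genes changed). In Rv1-Luc the increase was from 42, 31.3 and 38.6 CPM to 66.4, 59.2 and 64.4 CPM in FBS (0.76, SE 0.0731, edgeR FDR 1.16e-12; 3.67% of all genes). In CSS it was from 39.3, 38.7 and 39.7 CPM to 64.3, 56.3 and 63 CPM (0.64, SE 0.0735, edgeR FDR 3.53e-10; 4.06% of all genes). Vehicle and SNX631 libraries did not overlap in any of these settings, but the share of all genes without overlap is not given here. The vehicle libraries are those used in choosing TUBB.

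The size of the TUBA4A response did not differ detectably between media: the interaction of SNX631 with serum was 0.00 in Rv1-WT (95% confidence interval -0.26 to 0.27) and -0.12 in Rv1-Luc (-0.33 to 0.09). In the dKO lines, where TUBA4A had as few as 54 counts in a library, it did not pass the limits. Its level was 2.69, 3.66 and 2.82 CPM under vehicle and 3.87, 4.27 and 4.76 CPM with SNX631 in dKO-8 (0.50, edgeR FDR 0.0248), and the change was 0.09 (95% confidence interval -0.21 to 0.38) in dKO-19. In the kinase-dead lines it was -0.30 (-0.63 to 0.03) in dKO-8M and 0.01 (-0.24 to 0.25) in dKO-19M. Set against dKO-8M, the response in dKO-8 was 0.80 higher (SE 0.225, edgeR FDR 0.0189) and missed the limits, as all other members did, where 0.905% of all tested genes differed. It passed them without replicate 2 of dKO-8 under vehicle (0.93, edgeR FDR 0.00954) or without replicate 1 of dKO-8M with SNX631 (0.97, edgeR FDR 0.00596).

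TUBB2B was the tubulin gene that fell with SNX631, in Rv1-Luc in CSS, in dKO-8 and in dKO-19M. In Rv1-Luc in CSS it was at 5.31, 4.78 and 5.08 CPM under vehicle and 2.21, 1.76 and 2.28 CPM with SNX631 (-1.28, SE 0.153, edgeR FDR 1.06e-09). In dKO-8 it was at 9.65, 8.21 and 9.14 CPM and at 4.54, 6.39 and 5.85 CPM (-0.69, SE 0.115, edgeR FDR 6.68e-06), where 1.71% of all tested genes changed. In the kinase-dead line dKO-19M it was at 6.53, 6.24 and 7.25 CPM and at 4.58, 4.31 and 3.7 CPM (-0.68, SE 0.126, edgeR FDR 0.000698), where 0.09% of all genes, or 18, changed. The groups did not overlap in any of the 3 settings, a description without the share of all genes beside it. Without replicate 1 of dKO-8 with SNX631 the change in dKO-8 was -0.56 and under the limit of fold change, and without replicate 3 of dKO-19M with SNX631 the change in dKO-19M was -0.59 with an edgeR FDR of 0.0235. Without the vehicle library of dKO-19M that stood apart, it was -0.69 with an edgeR FDR of 0.00347, and the call was also lost after thinning (-0.47, edgeR FDR 0.118) and in a fit to the libraries of dKO-19M only (-0.68, edgeR FDR 0.0746).

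Elsewhere TUBB2B had values of -0.35 in Rv1-WT in FBS (edgeR FDR 0.0102), 0.05 in Rv1-WT in CSS, -0.29 in Rv1-Luc in FBS, -0.44 in dKO-19 (edgeR FDR 0.00476) and -0.32 in dKO-8M (edgeR FDR 0.611). No member passed the limits in dKO-19, where 3.41% of all tested genes did, or in dKO-8M, where 0.015% did. The sum of TUBB2A and TUBB2B fell in Rv1-Luc in CSS (-0.69, edgeR FDR 1.26e-07), and had -0.46 in dKO-8 and -0.47 in dKO-19M, under the limit of fold change. In Rv1-Luc the response of TUBB2B to SNX631 was lower in CSS than in FBS (-0.99, SE 0.207, edgeR FDR 0.00761), where 0.08% of all tested genes differed. Of the 12 fits without 1 library, 9 did not keep this call, and for the sum of TUBB2A and TUBB2B the difference was -0.37 with an edgeR FDR of 0.28. In Rv1-WT no member's response differed between the media past both limits, where 0.295% of all genes did. TUBA1A and TUBA1B had 0.36 each there, with an edgeR FDR under 0.01 but less than 1.5-fold, and TUBB had 0.22, given without a test.

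The abundant tubulin genes moved by less than 1.5-fold with SNX631. In dKO-8, TUBB was at 1383, 1389 and 1363 CPM under vehicle and 1665, 1667 and 1680 CPM with SNX631 (0.28, SE 0.037, edgeR FDR 4.76e-08, a fold change of 1.21). TUBB4B was at 803, 794 and 785 CPM and at 1006, 1043 and 1054 CPM there (0.38, edgeR FDR 3.82e-09, a fold change of 1.3). In dKO-8M the values were 1337, 1343 and 1353 CPM and 1387, 1370 and 1338 CPM for TUBB, which overlapped (0.02, 95% confidence interval -0.05 to 0.1). Compared with dKO-8M, the response in dKO-8 was larger by 0.26 for TUBB (SE 0.0523, edgeR FDR 0.00058) and by 0.33 for TUBB4B (SE 0.0653, edgeR FDR 0.000322), both under the limit of fold change. No member differed past the limits between dKO-19 and dKO-19M in its response, where 2.07% of all tested genes did. In dKO-19 TUBB had 0.11 (edgeR FDR 0.0247) and in dKO-19M 0.06 (edgeR FDR 0.483), and the difference of those was 0.05 with a 95% confidence interval of -0.05 to 0.16.

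The 10 members together took 0.564% ± 0.00159 of all counts under vehicle and 0.66% ± 0.00742 with SNX631 in dKO-8, and 0.619% ± 0.0039 and 0.628% ± 0.00652 in dKO-8M. In dKO-19 the share was 0.658% ± 0.0186 and 0.743% ± 0.00514, and in dKO-19M 0.629% ± 0.0387 and 0.637% ± 0.0222. TUBA1B in Rv1-WT in CSS was at 866, 947 and 985 CPM under vehicle and at 1181, 1358 and 1229 CPM with SNX631 (0.43, a fold change of 1.35). TUBB had 0.21 there and -0.02, 0.01 and 0.05 in the other 3 settings of Rv1-WT and Rv1-Luc. These TUBB values are given without a test because the vehicle libraries were used in choosing TUBB. Tests of the other members for SNX631 in these lines rest on the same vehicle libraries.

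**Figure D5:**
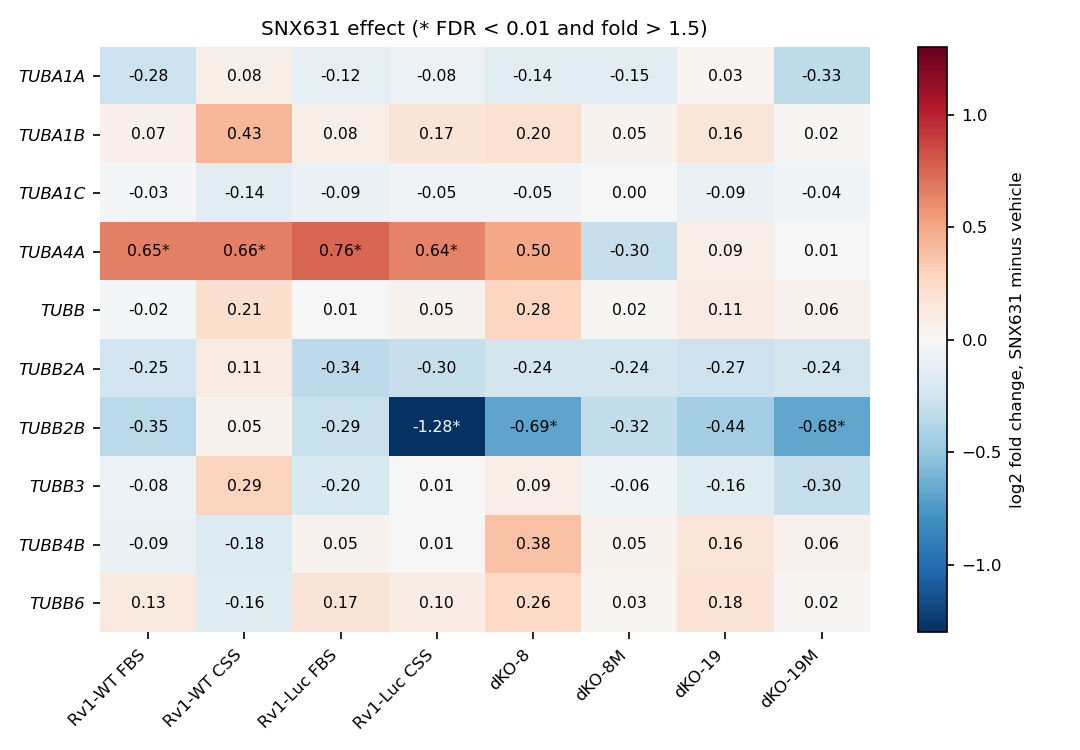
Effect of SNX631 on the 10 tubulin genes in 8 settings, as the log2 fold change against vehicle (printed in each cell, red above 0 and blue below). An asterisk marks an FDR under 0.01 with a fold change above 1.5. The row of TUBA4A holds 0.64 to 0.76 with asterisks in Rv1-WT and Rv1-Luc, and that of TUBB2B holds asterisks at -1.28, -0.69 and -0.68.

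Of the other pathway genes, MAP1A and MAP1B rose with SNX631 in all 4 settings of Rv1-WT and Rv1-Luc, by 0.82 to 1.15 and by 0.63 to 1.07 on the log2 scale. MAP1B also rose in dKO-19 (1.18, edgeR FDR 8.47e-13) and the response differed from that in dKO-19M by 1.12 (edgeR FDR 2.19e-08). TUBA3D rose in both media in Rv1-WT (1.38 in FBS, 1.57 in CSS), and TUBAL3, an alpha-tubulin-like gene, fell there in CSS (-1.06, edgeR FDR 0.00192). Both were scarce, with TUBA3D at 0.186 to 2.78 CPM and TUBAL3 at 0.264 to 3.28 CPM over the 48 libraries. The remaining calls were rises of MAP6 (1.76) and MAP7 (0.65) in Rv1-Luc in FBS, of MAP2 (0.69) in Rv1-Luc in CSS and of TTLL3 (0.59) in dKO-19, and a fall of VASH2 (-0.72) in dKO-19. MAP6 was near the floor, with at most 25 counts in a library. None of the folding cofactor, prefoldin, chaperonin, autoregulation or cell division genes passed the limits with SNX631 in any of the 8 settings.

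Without SNX631, dKO-8 and dKO-8M differed in the TUBB2 pair. TUBB2B was at 9.65, 8.21 and 9.14 CPM in dKO-8 and 1.9, 2.11 and 2.83 CPM in dKO-8M (-2.02, SE 0.135, edgeR FDR 5.62e-19), the widest difference of a tubulin gene between an active line and its kinase-dead counterpart. TUBB2A was at 8.06, 8.52 and 7.81 CPM and at 5.04, 4.82 and 5.51 CPM (-0.67, SE 0.121, edgeR FDR 1.09e-05). Of the 10 members these 2 differed, where 7.03% of all tested genes did. No libraries of the lines overlapped for either gene, but the share of all genes without overlap is not given here. With SNX631 the differences were -1.64 (edgeR FDR 4.29e-13) and -0.67 (edgeR FDR 3.54e-05), where 5.05% of all genes differed. The sum of the pair was lower in dKO-8M in both (-1.23 and -1.03).

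Between dKO-19 and dKO-19M, TUBA1A differed and the TUBB2 pair did not pass the limits. TUBA1A was at 116, 112 and 118 CPM in dKO-19 and 283, 239 and 237 CPM in dKO-19M under vehicle (1.13, SE 0.0533, edgeR FDR 2.43e-25), as 1 of 10 members where 7.6% of all tested genes differed. Without replicate 1 of dKO-19M, which stood apart, the difference was 1.04 (edgeR FDR 2.36e-27). With SNX631 it was 0.77 (124, 115 and 115 CPM against 208, 196 and 202 CPM, edgeR FDR 4.87e-18), where 7.18% of all genes differed. TUBA1A had -0.33 with SNX631 in dKO-19M (edgeR FDR 6.79e-05, fold change 1.25), and -0.24 without that replicate. The summed count of TUBA1A, TUBA1B and TUBA1C was lower in dKO-19M, with -0.09 under vehicle and -0.22 with SNX631, since TUBA1B was about an order of magnitude more abundant and had -0.13 and -0.27. TUBA4A in dKO-19M under vehicle missed the limits. It passed them without replicate 2 of dKO-19 under vehicle (0.68, edgeR FDR 0.000244) or without replicate 2 of dKO-19M under vehicle (0.63). It also passed them with library sizes in place of TMM (0.6, edgeR FDR 0.000191).

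The active lines differed as well: in dKO-19 under vehicle TUBA1A (-0.61, edgeR FDR 3.81e-14) and TUBB2A (-0.83, edgeR FDR 3.2e-07) were lower than in dKO-8 and TUBA4A was higher (0.59, edgeR FDR 0.0025), where 6.51% of all tested genes differed. The TUBA4A call was lost without replicate 1 (0.52) or 3 (0.53) of dKO-8 under vehicle and without replicate 2 of dKO-19 under vehicle (0.47), and also with library sizes in place of TMM (0.52) and without the filter on low counts (0.58). TUBB had 0.40 (edgeR FDR 1.19e-13, fold change 1.32). In FBS with SNX631, Rv1-Luc differed from Rv1-WT in 3 members, where 18.3% of all tested genes differed: TUBB2B was lower (-2.01, edgeR FDR 7.79e-22), as was TUBA1A (-0.63, edgeR FDR 9.45e-15), and TUBA4A was higher (0.92, edgeR FDR 1.35e-15). The sum of TUBB2A and TUBB2B had -0.50 in dKO-19 against dKO-8, under the limit of fold change, and -1.07 in Rv1-Luc against Rv1-WT. The 3 summed TUBA1 genes had 0.22 in both of these comparisons, the opposite sign to TUBA1A.

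The genes whose group means ran most like those of TUBB were found by Pearson's r over the 16 group means of log2(CPM + 0.5), among 10542 genes that averaged 10 CPM or more. The highest values belonged to GRWD1 (0.978), CACYBP (0.973), UBE2T (0.971), NDUFA7 (0.966) and NUTF2 (0.965), and the lowest to INTU (-0.955), MIA3 (-0.954), PLXDC2 (-0.952), SLC9A8 (-0.944) and ZFP41 (-0.938). Of the tubulin genes, TUBA1B had 0.939, TUBB4B 0.938 and TUBB6 0.92, which placed them 47th, 52nd and 113th. TUBA1C had 0.852, TUBB3 0.701, TUBA1A 0.391 and TUBA4A -0.068. The 16 means share 1 normalization, and the 2 groups of Rv1-WT in CSS lay far from the others, so these values are descriptions without a test.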

How the data were processed

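RNA was sequenced from 48 libraries of the human line 22Rv1 and its derivatives, grouped by sample title into 16 groups of 3. A kit that marks the strand was used on total RNA, per the labels. The submitters' processing notes name cutadapt 2.8, STAR 2.7.2b, featureCounts from Subread 2.0.3 and GRCh38.p13; the annotation release and the strand setting of the counting are not given in the sources used here. The values the authors deposited are expected counts per gene, and how shared reads were counted is not given either; 81.6% of the nonzero values were whole to within 1e-06. Counts were rounded, which moved a member's count by at most 1.01%.

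Here, 2 transgenes were left out, genes were filtered by filterByExpr of edgeR 4.0.16 (minimum count 10, minimum total 15) and scaled by TMM (factors 0.911 to 1.07). All 48 libraries entered 1 quasi-likelihood fit without covariates (32 residual degrees of freedom, two-sided F-test, Benjamini-Hochberg FDR over 20009 genes). A call needed an FDR under 0.01 and a fold change above 1.5, the limits of the study. On simulated data, 1 comparison, depletion in Rv1-WT with SNX631, was tested before use, with 4 planted fold changes. The other comparisons were not checked in this way. The members and pathway lists were chosen with earlier results of these data known. The text names all members, called genes of the lists (at most 5 a list), and the 5 genes most and least like TUBB. Alternatives are given in the closing section. Replicate numbers did not pair the samples: in 0 of 18 comparisons did every same-numbered pair of libraries correlate above 0.1.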

Additional observations from a re-analysis of the deposited data

Results flagged for a closer look

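In the SNX631 libraries, 7 tubulin genes responded to androgen depletion differently in Rv1-Luc than in Rv1-WT by a test of the difference itself, the interaction term of the edgeR fit. The differences, Rv1-Luc minus Rv1-WT on the log2 scale, were 0.7 for TUBA1A, 0.79 for TUBA1B, 1.23 for TUBA4A, 0.96 for TUBB, 1.25 for TUBB3, 1.05 for TUBB4B and 0.79 for TUBB6. They also passed the limits in all 21 alternative fits run for each of these genes, with ranges of 0.64 to 0.78 for TUBA1A and 0.93 to 0.99 for TUBB. The response of TUBB2B to SNX631 in Rv1-Luc was lower in CSS than in FBS (-0.99, edgeR FDR 0.00761). That call was kept in 9 of 21 alternatives, the looser limit among them (FDR 0.000438 to 0.182).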

How the results depend on the processing

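The alternatives were DESeq2 size factors or library sizes in place of TMM, no filter on low counts, DESeq2's Wald test, unrounded counts, thinning to the smallest library, fits to the libraries of a comparison only, an FDR of 0.05 as the sole limit, a replicate block, summed paralogs, and leaving out each library in turn. Of the 37 member calls, 30 were kept in every alternative other than the paralog sums. The FDR of 0.05 as the sole limit is among these, and no call could be lost by it. The fall of TUBA1A in Rv1-WT with SNX631 ended at -0.58 with DESeq2 size factors, -0.55 with library sizes and -0.58 in a fit to its own libraries. Of the calls in 1 comparison, 1 was left in Rv1-Luc depletion (TUBB2B was lost) and 0 for SNX631 in dKO-19M and for serum in Rv1-Luc, both under thinning and in fits to the comparison's libraries. The higher TUBA4A in dKO-19 than in dKO-8 ended at 0.52 with library sizes and 0.58 without the filter. With library sizes the counts were 2 for dKO-19M against dKO-19 under vehicle and 0 for serum in Rv1-Luc. The SNX631 effect in dKO-8 against that in dKO-8M held 1 call without the filter, with DESeq2 and in a fit to its own libraries.

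With an FDR of 0.05 as the sole limit the calls were 3 in Rv1-WT in FBS, 6 in Rv1-WT in CSS, 3 in Rv1-Luc in FBS, 6 in dKO-8, 4 in dKO-19 and 3 in dKO-19M for SNX631, and 7 and 6 for dKO-8M against dKO-8, 7 and 8 for dKO-19M against dKO-19 (vehicle and SNX631), 9 for dKO-19 against dKO-8 and 9 for Rv1-Luc against Rv1-WT. They were 3 for dKO-8 against dKO-8M, 1 for dKO-19 against dKO-19M and 3 for serum in Rv1-WT in the response to SNX631. The 6 in Rv1-WT in CSS and the 3 for serum in Rv1-WT include TUBB, for which these are no test, since the vehicle libraries were used in choosing it. The share of all tested genes at this looser limit is not given here, so nothing is read from these counts. Leaving out 1 library gave 7 to 8 calls for depletion in Rv1-WT, 1 to 2 in Rv1-Luc, 7 to 8 for their difference, 0 to 1 for SNX631 in dKO-8 and in dKO-19M, 2 to 3 for dKO-8M against dKO-8 with SNX631, 1 to 2 for dKO-19M against dKO-19 under vehicle, 2 to 3 for dKO-19 against dKO-8, 0 to 1 for the SNX631 effect in dKO-8 against dKO-8M and 0 to 1 for serum in Rv1-Luc. With TUBB2A and TUBB2B summed, the calls of TUBB2A in Rv1-WT depletion (-0.47) and in dKO-19 against dKO-8 (-0.5) and of TUBB2B for SNX631 in dKO-8 (-0.46), in dKO-19M (-0.47) and for serum in Rv1-Luc (-0.37) were lost. The summed TUBA1 genes turned the sign of TUBA1A to -0.09 and -0.22 for dKO-19M against dKO-19 and to 0.22 for dKO-19 against dKO-8 and for Rv1-Luc against Rv1-WT. The replicate block changed no call (8 in Rv1-WT depletion). Scalings moved the median of all genes by at most 0.08 (log2). Depth limits TUBA4A, TUBB2A and TUBB2B in the dKO lines, with counts as low as 39 in a library. It also limits TUBB2B in Rv1-Luc in CSS with SNX631, with a count as low as 38.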
